A study of Oryza sativa Japonica Group with 9 samples.

Results

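CKI1 (LOC4330018) and CKI (LOC4334396) are the rice genes that the reference tables name as casein kinase I and that differed between cell populations of mycorrhizal roots. They were chosen from 17905 genes with a probe set of their own because a probe set of each had been called higher in arbusculated cells in these same data. All probe sets paired with either gene were taken, which gave 1 for CKI1 and 1 for CKI of 57258 rice probe sets on the array, and 0 further probe sets were shared with another gene. No other member of the casein kinase family could be named from the tables, so the family is described here by these genes alone. RefSeq lists 1 transcript for CKI1 and 4 for CKI, and a single probe set does not tell the transcripts of CKI apart.

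Expression was measured on 9 single-colour arrays of laser-captured cortical root cells from the japonica cultivar Nipponbare, each from about 2000 captured cells of roots harvested at 7 weeks. The arbusculated group (3 arrays) held cells with arbuscules, the branched structures through which an arbuscular mycorrhizal fungus and its host exchange nutrients. The systemic group (3 arrays) held fungus-free cells beside arbusculated cells in roots that had received 250 spores of Rhizophagus irregularis, and the mock group (3 arrays) held cortical cells from mock-inoculated roots. All plants were fertilised every second day with a nutrient solution that contained phosphate. The labels do not tie arrays to plants, so p-values measure the spread between these samples, which may in part be technical, and arbusculated and systemic cells may or may not share plants.

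Casein kinases I are serine and threonine protein kinases found across eukaryotes, and in plants they act in hormone responses, flowering time and cell growth. Rice CKI1, also listed as LTG1 and HBD2, is known for roles in root development, hormone response and growth at low temperature. Rice CKI, also listed as EL1 and Hd16, belongs to a plant branch of the family, and its protein is known to phosphorylate the DELLA protein SLR1, the repressor of gibberellin responses, and the flowering-time regulators Ghd7 and PRR37. DELLA proteins are in turn known to be needed for arbuscules to form in rice roots.

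CKI1 signal was high in arbusculated cells and low in both other populations. Its log2 signal was 5.64, 7.01 and 6.40 on the arbusculated arrays 1, 2 and 3, against 4.02, 3.47 and 3.57 on the systemic arrays and 3.78, 3.46 and 3.47 on the mock arrays. Every arbusculated array lay above all systemic and mock arrays, and the systemic and mock arrays overlapped. This pattern was found for 3.23% of all probe sets. High arbusculated arrays are what chose CKI1, and 1847 of the 2059 probe sets with arbusculated above both other groups had such an overlap. Group means were 6.35 ± 0.69 in arbusculated, 3.69 ± 0.29 in systemic and 3.57 ± 0.18 in mock cells (log2, SD, n = 3 each). CKI1 was thus 2.78 ± 0.34 higher in arbusculated than in mock cells (log2 difference, SE from the fit), a 6.89-fold ratio of the log-scale means, and 2.67 ± 0.34 higher than in systemic cells, a 6.34-fold ratio. In such captured samples, more cells that express a gene and more RNA of it per cell cannot be told apart. Within the arbusculated group the arrays spread over 1.37 log2 units, against 0.54 in systemic and 0.32 in mock cells.

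The low values of CKI1 lie near the dim end of the arrays. Between 11.9% and 19.0% of all probe sets had a lower signal on a given systemic array, and between 11.9% and 15.4% on a given mock array, while on the arbusculated arrays between 54.5% and 83.0% did. Probes differ in how strongly they bind, so these shares say only how dim the probe set was. No detection calls were used here, and how much of the systemic and mock signal was background was not tested.

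CKI signal was also highest in arbusculated cells, but the other populations stood apart from each other. Its log2 signal was 7.44, 7.89 and 7.41 on the arbusculated arrays 1, 2 and 3, against 5.57, 6.02 and 6.02 on the systemic arrays and 6.27, 6.90 and 6.77 on the mock arrays. The 3 groups did not overlap, in the order arbusculated, mock and systemic from high to low, which 0.22% of all probe sets had. High arbusculated arrays are part of what chose CKI, so that share overstates how rare the order is. Of the 2059 probe sets with arbusculated above both other groups, 126 had it. Group means were 7.58 ± 0.27 in arbusculated, 5.87 ± 0.26 in systemic and 6.65 ± 0.33 in mock cells (log2, SD, n = 3 each). CKI was 1.72 ± 0.26 higher in arbusculated than in systemic cells (log2 difference, SE), a 3.28-fold ratio, and 0.93 ± 0.26 higher than in mock cells, a 1.91-fold ratio. The spread within a group was similar across the groups, at 0.48 log2 units in arbusculated, 0.45 in systemic and 0.63 in mock cells.

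**Figure D1:**
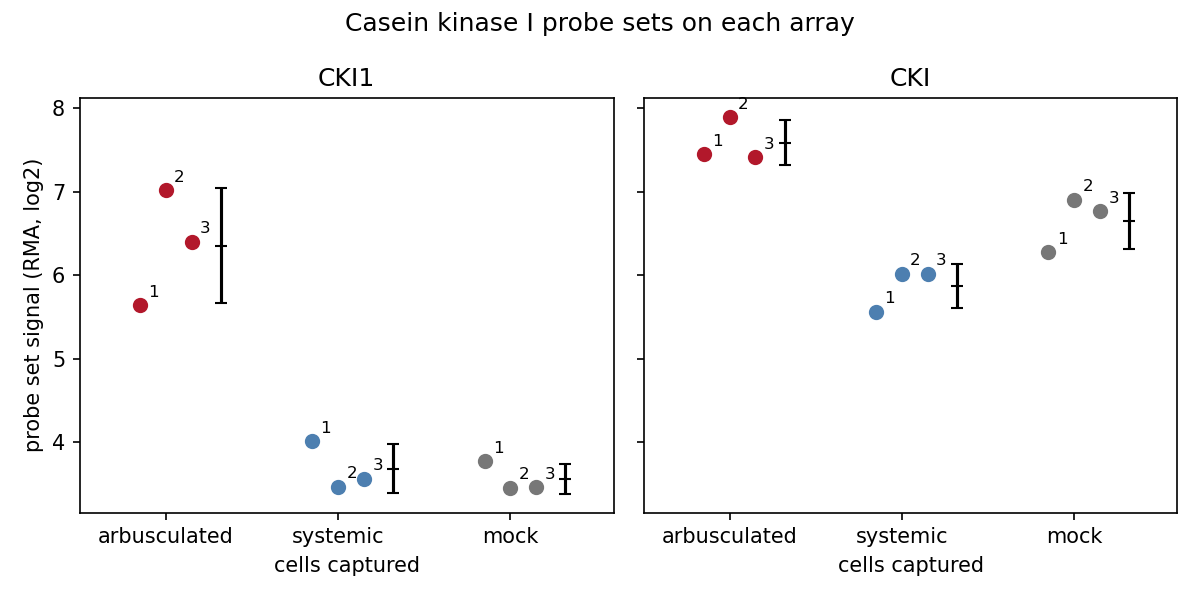
Log2 signal of the CKI1 and CKI probe sets (vertical axis) on each array of arbusculated, systemic and mock cells, with replicate numbers beside the points and the group mean ± SD (n = 3) beside each group. CKI1 lies between 5.64 and 7.01 in arbusculated cells and at or below 4.02 elsewhere, and CKI separates all 3 groups, with systemic cells lowest.

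The differences between arbusculated cells and the other groups are what chose these genes, and they are given as a description, not as a test. CKI1 had been called in both contrasts, with adjusted p of 0.0273 against mock and 0.0304 against systemic cells in limma. These calls ended with the replicate block (adjusted p of 0.119 and 0.124) and with only the 6 arrays of each contrast (0.101 and 0.0828). They also ended with any 1 array left out except arbusculated 1 and, against systemic cells, mock 2, with adjusted p up to 0.106 against mock and up to 0.0945 against systemic cells. CKI had been called against systemic cells only, at an adjusted p of 0.0487, which was between 0.0555 and 0.126 with any 1 array left out and 0.0929 with the replicate block, and stood at 0.265 against mock cells. At the threshold of 0.05, CKI and the peroxiredoxin gene PRXIIC (0.0492) were the last of 10 named genes inside it in arbusculated against systemic cells, and APG8B (0.0515) was the first outside. Of all probe sets 0.178% were called higher in arbusculated than in mock cells, and 0.232% higher than in systemic cells. Arrays of arbusculated cells that all lay above those of both other groups were found for 3.6% of all probe sets. The median difference over all probe sets was -0.12 between arbusculated and mock cells and -0.17 between arbusculated and systemic cells, and it was not subtracted from the values given.

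Systemic against mock cells is the contrast that did not choose the genes, although it uses arrays that the other contrasts share. It asks whether a fungus-free cell in a colonised root differs from a cell of a root without the fungus. CKI had been called against systemic cells only, a call that low systemic arrays favour. Its systemic minus mock difference therefore leans low by that choice, and its test is not free of it. CKI1 had been called against both groups, which low arrays in both favour, so its test is not free of the choice either. The same holds for the comparison of CKI1 with CKI below. CKI1 differed by 0.12 ± 0.34 (log2, SE), with a 95% interval from -0.67 to 0.90, and did not pass the test (adjusted p = 0.982 by limma; exact two-sided permutation p = 0.5). CKI was lower in all 3 systemic than in all 3 mock arrays, by -0.78 ± 0.26 with an interval from -1.37 to -0.20, a ratio of 0.58, but did not pass over all probe sets (adjusted p = 0.969 by limma). The exact permutation p of CKI was 0.1, the smallest that 3 arrays against 3 allow. Groups with systemic below mock cells without overlap were found for 3.4% of all probe sets. In this contrast 0 probe sets passed in limma, and 2485 (4.34%) had an unadjusted p of at most 0.05. The systemic minus mock difference of CKI1 exceeded that of CKI by 0.90 ± 0.43 (SE), which the exact permutation test did not separate from 0 (p = 0.2). CKI1 lay near the dim end of the arrays in both groups, which leaves it little room to fall. Neither its small difference nor the comparison with CKI can tell whether its RNA was lower in systemic cells.

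**Figure D2:**
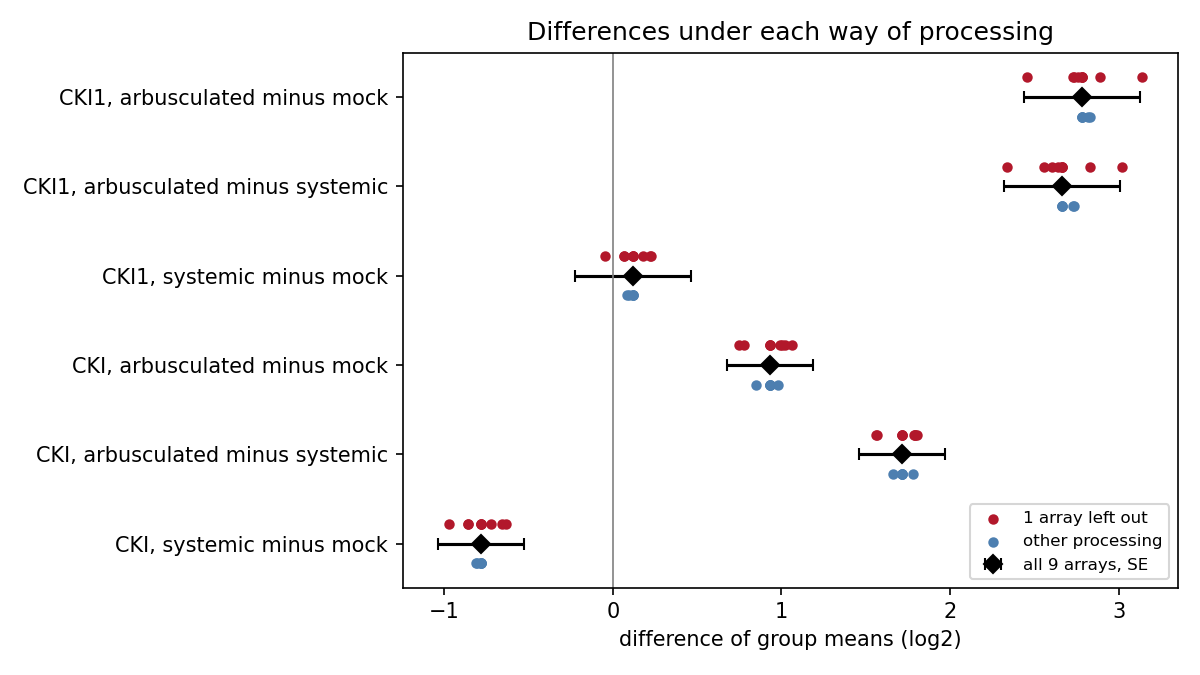
Differences of group means (horizontal axis, log2) for CKI1 and CKI in the 3 contrasts, with the fit to all 9 arrays as black diamonds with SE, fits with 1 array left out in red and other processing in blue. CKI1 stays above 2.3 over mock and systemic cells in every fit shown, and its systemic minus mock difference lies around 0.

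RNA quality differed among the arrays. On 7 rice control transcripts, the signal at the 3' end minus that at the 5' end, a guide to RNA quality, averaged 1.25, 0.73 and 0.36 on the arbusculated arrays 1, 2 and 3, against -0.07, 0.56 and 0.10 on the systemic and 0.42, 0.34 and 0.20 on the mock arrays. The means were 0.78 ± 0.45 in arbusculated, 0.20 ± 0.32 in systemic and 0.32 ± 0.11 in mock cells (SD, n = 3 each), and the groups overlapped. The array with the largest value, arbusculated 1, had the lowest CKI1 signal of its group, and arbusculated 2 had the highest signal of both genes. Mock array 2 correlated with the arbusculated arrays at a mean r of 0.878 and with the other mock arrays at 0.853, across probe sets, which are not independent. Without mock array 2 the arbusculated minus mock difference was 2.73 for CKI1 and 1.06 for CKI. The part of RNA quality in the values of CKI1 and CKI was not tested.

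The labels of the cell populations were set against marker genes. Of 4 probe sets of PT11, which takes up phosphate from the fungus across the periarbuscular membrane, 1 had log2 signals of 9.43, 8.91 and 8.30 on the arbusculated arrays 1, 2 and 3, against 3.55 to 4.37 on the systemic and 3.56 to 4.20 on the mock arrays, and this probe set, chosen after its values were seen, rose over mock by 5.00 ± 0.36 (adjusted p = 0.00303 by limma). The other 3 probe sets of PT11 differed by -0.33, -0.81 and 2.01 between arbusculated and mock cells. The ammonium transporter AMT3;1, also a gene of arbusculated cells, had 8.02, 8.53 and 7.34 on its brighter probe set in arbusculated cells, against 6.76 to 7.35 in systemic and 6.77 to 7.11 in mock cells. This AMT3;1 probe set overlapped with systemic cells and did not pass over mock (adjusted p = 0.298 by limma) or systemic cells (adjusted p = 0.173), and the second AMT3;1 probe set differed by -0.15 over mock. The 3 cellulose synthases of secondary walls (CESA4, CESA7 and CESA9), markers of xylem and sclerenchyma, had a mean log2 signal per array of 6.27 to 6.60 in arbusculated and 6.07 to 6.89 in systemic cells, against 7.06 to 8.01 in mock cells. The 5 measured endodermis markers had means of 6.96 to 8.52 in arbusculated and 7.18 to 7.33 in systemic cells, against 7.18 to 7.87 in mock cells. These means use the brightest probe set of each gene. The dimmer probe sets of the endodermis marker CASP1 differed by -0.46 and -0.39 between arbusculated and mock cells, against 0.46 for its brightest. The dimmer CESA4 probe set was not lower in systemic than in mock cells (0.19, against -1.34 for the brighter). By their brightest probe sets 0 of the xylem, sclerenchyma and endodermis markers passed the test in limma, and 2 of 3 and 1 of 5 had an unadjusted p of at most 0.05 between arbusculated and mock cells, against 14.2% of all probe sets. The part of other cell types in the values of CKI1 and CKI was not tested.

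The known targets of the CKI protein are themselves measured on the array, except Ghd7, which was not analysed here. SLR1, the rice DELLA gene, had 8.29, 8.42 and 8.06 on the arbusculated arrays 1, 2 and 3, against 7.76, 7.96 and 7.32 on the systemic and 9.65, 7.15 and 7.44 on the mock arrays. Its groups overlapped between arbusculated and mock cells, with mock array 1 above all others, and it differed by 0.18 ± 0.58 (adjusted p = 0.892 by limma). Over systemic cells it differed by 0.58 ± 0.58 (adjusted p = 0.546), a difference no larger than its SE. The groups did not overlap there, but the share of all probe sets with such a separation is not given here. PRR37, a repressor of flowering, had 2 probe sets. The brighter PRR37 probe set had 7.65, 7.23 and 7.53 in arbusculated, 7.12, 6.95 and 6.97 in systemic and 6.98, 7.39 and 7.29 in mock cells, and its arbusculated minus mock difference was 0.25 ± 0.21 (adjusted p = 0.547). The dimmer PRR37 probe set had 6.63, 6.91 and 7.69 in arbusculated, 5.99, 5.49 and 5.48 in systemic and 5.90, 5.97 and 5.44 in mock cells. Its arbusculated arrays lay above all others, as they did for 3.6% of all probe sets. It differed by 1.30 ± 0.32 over mock (adjusted p = 0.226) and 1.42 ± 0.32 over systemic cells (adjusted p = 0.106), and did not pass the test either.

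Gibberellin genes were the pathway list closest to the known role of CKI, and 12 of its 13 genes matched in the tables were measured. By their brightest probe sets none passed the test in limma in any contrast. Of all probe sets, 0.187% passed in either direction between arbusculated and mock and 0.246% between arbusculated and systemic cells. In all, 10 of 12 were higher in arbusculated than in mock cells with a median of 0.32, where 41.2% of all probe sets were above 0 with a median of -0.12. Here and for the lists below, each gene stood by its brightest probe set, while all probe sets include 34727 paired with no gene. The shares are thus not like for like, and whether bright, annotated probe sets in general lean the same way was not tested. At an unadjusted p of at most 0.05 there were 5 of 12, where 14.2% of all probe sets had such a p. KO2, an ent-kaurene oxidase, averaged 8.51 ± 0.30 in arbusculated, 6.58 ± 1.77 in systemic and 6.55 ± 0.40 in mock cells (log2, SD, n = 3 each), a difference over mock of 1.96 ± 0.75 (SE; adjusted p = 0.336). KAO, an ent-kaurenoic acid oxidase, was 1.90 ± 0.51 higher than in mock cells (adjusted p = 0.259). The lowest differences were -0.20 for the DELLA-like gene SLRL1 and -0.03 for SPY, an O-linked N-acetylglucosamine transferase that restrains gibberellin responses. Between arbusculated and systemic cells the list had a median of 0.66, and 4 of 12 genes had an unadjusted p of at most 0.05, against 23.9% of all probe sets. KO2 passed there when systemic array 2 was left out, at 2.94 (adjusted p = 0.0458).

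The other lists cover pathways in which rice casein kinases I have been placed. By their brightest probe sets 0 of their members passed the test in limma in any contrast, and further probe sets of these genes were not counted. Of 12 measured brassinosteroid genes 9 were higher in arbusculated than in mock cells, against the same 41.2% of all probe sets, with a median of 0.29 and 1 gene at an unadjusted p of at most 0.05. D1, the G protein alpha subunit, differed by 1.26 ± 0.88 (adjusted p = 0.489) and LIC by 1.02, and BU1 by -0.38 and D11, a cytochrome P450 of brassinosteroid synthesis, by -0.22. Of 20 measured abscisic acid genes 17 were higher, with a median of 0.64 and 1 gene at an unadjusted p of at most 0.05. Among them the kinase gene SAPK7 differed by 1.65 ± 0.97 (adjusted p = 0.43) and the abscisic acid 8'-hydroxylase gene ABA8OX2 by 1.19, while ABA8OX1 differed by -0.71 and the seed transcription factor gene VP1 by -0.11. Of 14 measured photoperiod and clock genes 11 were higher, with a median of 0.31 and 1 gene at an unadjusted p of at most 0.05. Of all probe sets 14.2% had such a p between arbusculated and mock cells.

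In the photoperiod list HD1, a regulator of flowering, averaged 5.54 ± 0.85 in arbusculated, 4.65 ± 0.37 in systemic and 4.004 ± 0.27 in mock cells (log2, SD, n = 3 each), a difference over mock of 1.54 ± 0.41 (SE; adjusted p = 0.261). SE5, a haem oxygenase of phytochrome chromophore synthesis, differed by 1.12 ± 0.76 (adjusted p = 0.479). Without mock array 2 SE5 passed, at 2.17 (adjusted p = 0.0345). EHD3 and PRR1 had the lowest differences, at -0.63 and -0.46. Against systemic cells the medians were 0.74 for brassinosteroid, 0.58 for abscisic acid and 0.49 for photoperiod genes, beside -0.17 over all probe sets. There 3 of 12, 3 of 20 and 2 of 14 genes had an unadjusted p of at most 0.05, against 23.9% of all probe sets. Between systemic and mock cells the unadjusted counts were 0 for the gibberellin, brassinosteroid and abscisic acid lists and 1 for photoperiod, against 4.34% of all probe sets. The medians there lay between -0.14 and 0.25, beside 0.07 over all probe sets.

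**Figure D3:**
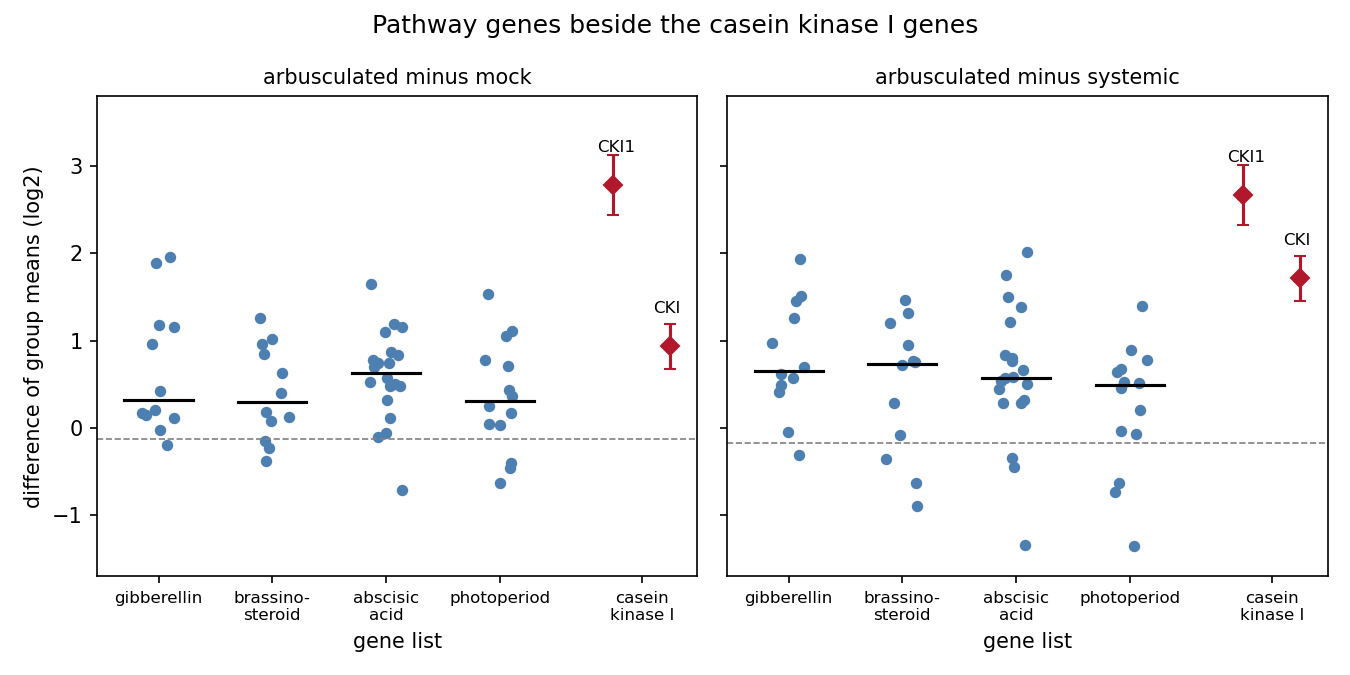
Differences of group means (vertical axis, log2) of each measured gene (points) in the gibberellin, brassinosteroid, abscisic acid and photoperiod lists, with the list median as a black bar, beside CKI1 and CKI as red diamonds with SE; the dashed line is the median over all probe sets. CKI1 at 2.78 and 2.67 lies above every list gene in both panels. CKI lies among the list genes in both, at 0.93 against mock and 1.72 against systemic cells. CKI1 and CKI were chosen for these differences.

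CKI1 and CKI had similar but not equal patterns, with a Pearson r of 0.80 over the 9 arrays. Both genes were chosen for high arbusculated arrays, so a high r between them follows in part from that choice. Among 1269 named genes with a mean signal of at least 6, 31 were more like CKI1 and 56 more like CKI than the genes were like each other. The arrays fall into groups, so such values describe mainly shared differences between groups, and they carry no p. The mean signal of CKI1 itself was below 6, so genes as dim as CKI1 over the 9 arrays were not compared. The PT11 probe set that rose in arbusculated cells was also not among those compared. Of the genes compared, the most like CKI1 were DXR (r = 0.96), the reductoisomerase of plastid isoprenoid synthesis, and OsYSL14 (0.95), a yellow stripe-like transporter. Next were OsPPT1 (0.93), HIRL1 (0.92) and CCD7 (0.91), the carotenoid cleavage dioxygenase of strigolactone synthesis. DXR had 7.99, 8.69 and 8.06 on the arbusculated arrays 1, 2 and 3, against 6.10 to 6.80 on the systemic and 6.07 to 6.16 on the mock arrays.

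The genes most like CKI were different ones. They were Ub-CEP52-2 (r = 0.93), a ubiquitin fusion gene, APG8B (0.93), an ATG8 gene of autophagy, PRXIIC (0.93), GLL (0.91) and HAK5 (0.90), a potassium transporter. APG8B had 9.17, 9.13 and 9.38 on the arbusculated arrays 1, 2 and 3, against 7.25, 7.40 and 7.62 on the systemic and 8.02, 8.79 and 7.81 on the mock arrays. HAK5 had 10.35, 10.01 and 10.49 on the arbusculated arrays, against 8.15, 8.73 and 9.30 on the systemic and 8.88, 9.96 and 9.64 on the mock arrays.

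**Figure D4:**
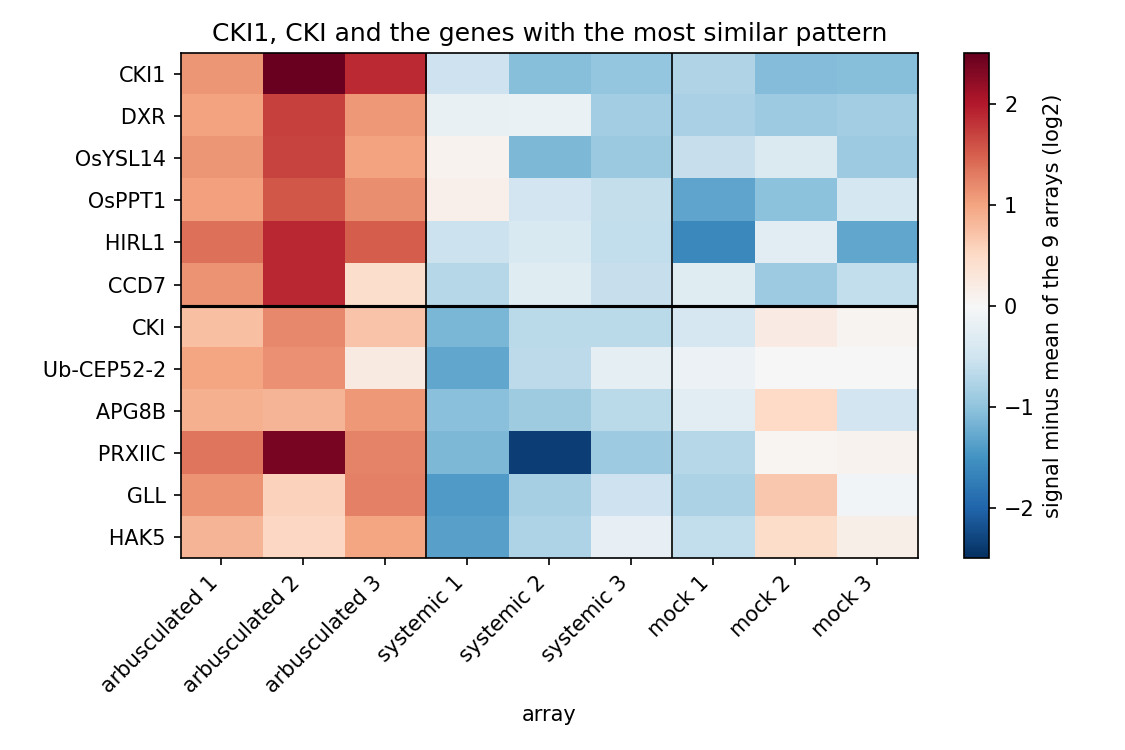
Log2 signal minus each gene's mean over the 9 arrays (colour) for CKI1, CKI and the 5 named genes most like each (rows), on each array (columns, by group). All rows have their highest group mean in arbusculated cells, although GLL overlaps with mock cells, and those under CKI have their lowest group mean in systemic cells. The genes were picked for this likeness.

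Measured genes next to CKI1 and CKI on their chromosomes were chosen by position, not by value. Beside CKI1, LOC4330017 differed by 1.09 ± 0.48 between arbusculated and mock cells and LOC4330021 by 1.61 ± 0.69 (log2, SE; adjusted p of 0.355 and 0.349 in limma), and SCS-beta and LOC4330019 by 0.10 and -0.08. Beside CKI, OsSAP7, OsSAP14 and LOC4334398 differed by -0.05, 0.13 and 0.01, and LOC4334399 by -1.32 ± 0.71 (adjusted p = 0.403). Between arbusculated and systemic cells LOC4330017 differed by 1.49 ± 0.48 and LOC4330021 by 2.13 ± 0.69, each with an adjusted p of 0.148. No neighbour had a lower adjusted p in any contrast. SCS-beta and LOC4330019 differed by 0.53 and -0.52 between arbusculated and systemic cells. In systemic against mock cells, where CKI differed by -0.78, LOC4334399 differed by -2.21 ± 0.71 (adjusted p = 0.969) and OsSAP7 by -0.57. OsSAP14 and LOC4334398, the nearest measured genes on either side of CKI, differed by 0.14 and 0.12 there.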

How the data were processed

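Each of 9 arrays gave 1 value per probe set. The authors deposited log2 values made with RMA, per the submitters' processing notes. RMA corrects background, normalises quantiles and summarises probes, so a group difference on a dim probe set can be compressed. No source used here gives its version or probe definition. The values, between 1.52 and 14.42, were analysed without rescaling and without 123 array controls. For arrays, their number per group, 3, limits the precision. The platform annotation paired 22436 probe sets with 1 gene, 95 with several and 34727 with none, and names come from the RefSeq gene table.

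All 9 arrays were fitted in limma 3.58.1 (R 4.3.3) with a mean per group, two-sided tests and Benjamini-Hochberg adjustment over all probe sets at 0.05. The fit was tested on simulated data. Single values were also compared with exact permutation tests over arrays. The casein kinase genes and all lists were chosen with earlier results of these data known. A gene was represented by its probe set with the highest mean. Named are both kinase genes, SLR1 and PRR37 as known targets, from each list the highest 2 and lowest 2 arbusculated minus mock differences, the 5 named genes most correlated with each kinase gene, and the positional neighbours, which with examples among similar genes were added later. The family was to include similar proteins, but no protein sequences were used here, and symbols matched only kinases of other families, which were left out. A gene matched as GID2 was left out because it also carries the name of a 14-3-3 protein. Alternatives were variance moderation, normalisation, a filter on dim probe sets, a replicate block, 6 arrays, and leaving out each array.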

Additional observations from a re-analysis of the deposited data

How the results depend on the processing

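The arbusculated differences of CKI1 and CKI moved by less than the pooled SD within groups (0.44 for CKI1 and 0.29 for CKI) in all 58 alternative fits. Many of these fits could not move them. Variance moderation, the filter on dim probe sets, the replicate block and using only the arrays of the contrast leave the group means unchanged. Leaving out an array of the group not compared does so too. Only other normalisation and leaving out an array of a compared group could move the differences. With 1 array left out, the difference over mock ran from 2.45 to 3.14 for CKI1 and from 0.75 to 1.06 for CKI, and that over systemic cells from 2.33 to 3.02 and from 1.56 to 1.80. The adjusted p of CKI1 over mock ran from 0.0200 to 0.119 and over systemic cells from 0.0223 to 0.124, and that of CKI over systemic cells from 0.0405 to 0.126. With 1 array left out it was under 0.05 for CKI1 over mock only without arbusculated 1 (0.0260), for CKI1 over systemic cells only without arbusculated 1 (0.0360) or mock 2 (0.0490), and for CKI in 0 fits. Systemic minus mock for CKI1 turned to -0.047 without systemic 1, within -0.047 to 0.23, and for CKI it ran from -0.97 to -0.63. CKI1 is too dim for the fit to the brighter probe sets.

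Probe sets called between arbusculated and mock cells were 107, and 67 among brighter probe sets, 44 with only the 6 arrays and 20 to 169 with 1 array left out. Between arbusculated and systemic cells they were 141, and 92 with trend and robust moderation, 11 with only the 6 arrays and 25 to 126 with 1 array left out. Between systemic and mock cells they were 0, and 0 to 3 with 1 array left out. With the replicate block the counts were 32 against mock and 14 against systemic cells, and CKI1 and CKI had adjusted p of 0.119 and 0.0929 in the contrasts that chose them (0.124 for CKI1 over systemic cells). Replicate numbers are not stated to pair samples, and deviations of same-numbered arrays correlated at -0.29 to 0.04. Smaller fits have fewer samples, and the cause of the other changes was not tested. Of 315 list counts under alternatives, 313 did not change. Averaging probe sets of a gene changes nothing for CKI1 and CKI, which have 1 each, and no other family member was identified in the tables. How far background in the dim systemic and mock signal compresses the CKI1 differences was not tested.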
